A study of Mus musculus with 12 samples.

Results

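Toll-like receptors were followed here with their co-receptor Cd14 and their adaptor Myd88 in the mouse left ventricle 4 days after coronary ligation. The 10 genes are Tlr1, Tlr2, Tlr3, Tlr4, Tlr6, Tlr7, Tlr8, Tlr13, Cd14 and Myd88, taken by gene symbol from 17471 genes listed, and all 10 were among the 13678 genes with enough reads to be tested. RNA of whole left ventricle was sequenced from 4 groups of 3 libraries each. Cre-positive MI hearts came from mice with floxed Yap alleles and 1 copy of MerCreMer, a Cre recombinase switched on by tamoxifen, in the endogenous Postn locus, and the left anterior descending artery was tied off for good (MI, myocardial infarction). Cre-negative MI hearts came from siblings with floxed Yap and an unmodified Postn locus after the same ligation. Cre-positive sham and Cre-negative sham hearts came from the same 2 genotypes after sham surgery. All mice were 6 to 10 weeks old and ate tamoxifen citrate diet from surgery onward, so the drug and the floxed alleles were shared by every group. Postn is switched on in activated fibroblasts, the cells called myofibroblasts, whereas each sample held all cells of the ventricle. The labels give a replicate number and nothing more about how replicates were separated, and p-values therefore measure the spread between these samples.

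Toll-like receptors are membrane proteins that recognise microbial molecules and products of damaged tissue. TLR1, TLR2, TLR4 and TLR6 stand at the cell surface, where TLR2 pairs with TLR1 or TLR6 to bind lipoproteins and TLR4 binds lipopolysaccharide handed over by CD14. TLR3, TLR7, TLR8 and TLR13 sit in endosomes and read nucleic acids: double-stranded RNA for TLR3, single-stranded RNA for TLR7 and TLR8, and in mice bacterial ribosomal RNA for TLR13. Every one of them except TLR3 signals through the adaptor MyD88 to NF-kappaB and to cytokine genes. In the heart these receptors are found on macrophages and other infiltrating leukocytes and, for some members, on cardiomyocytes, endothelial cells and fibroblasts.

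Total expected counts (the read estimates per gene) were 13609502 to 14132503 in Cre-positive MI hearts, 13823268 to 15176286 in Cre-negative MI hearts, 10679705 to 13608483 in Cre-positive sham hearts and 10257675 to 11726159 in Cre-negative sham libraries. Levels below are in CPM, counts per 1000000 of the library size scaled by TMM factors, on which 1 read was worth 0.058 to 0.103 CPM. The floxed gene Yap1 stood at 91.1 to 93.9 CPM in Cre-positive MI hearts, 84.6 to 96.4 CPM in Cre-negative MI hearts, 102 to 121 CPM in Cre-positive sham hearts and 114 to 116 CPM in Cre-negative sham libraries. Its log2 fold change, Cre positive minus Cre negative, was 0.02 ± 0.09 after MI (edgeR adjusted p = 0.971) and -0.06 ± 0.09 after sham (edgeR adjusted p = 0.843). On the second principal component, Cre-positive sham replicate 2 lay at 57.8, against -21.4 to 14.7 in the other libraries. It held 65637 CPM over 8 summed cardiomyocyte markers, against 119224 and 123579 CPM in the other 2 libraries of its group. The markers went different ways there. Myh6, at 14335 against 49614 and 53143 CPM, and Tnni3, Ryr2, Actc1 and Atp2a2 were the lowest of the group. Tnnt2, at 16524 against 9719 and 13512 CPM, and Actn2 were the highest, and Pln lay between. Transcripts of the Y chromosome were read in 1 of 3 Cre-positive MI, 3 of 3 Cre-negative MI, 0 of 3 Cre-positive sham and 2 of 3 Cre-negative sham libraries, and Tlr7, Tlr8 and Tlr13 are X-linked.

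MI was accompanied by higher levels of most of the 10 genes, with the highest folds for Tlr13, Tlr1 and Tlr8. In the comparison of MI with sham, edgeR's quasi-likelihood test called 8 of 10 higher and 0 lower in Cre-positive hearts, where 25.7% of all genes tested were called higher and 19.5% lower. It likewise called 8 of 10 higher and 0 lower in Cre-negative hearts, where 29.9% were called higher and 24.4% lower. The same 8 genes rose in both genotypes: Tlr1, Tlr2, Tlr6, Tlr7, Tlr8, Tlr13, Cd14 and Myd88. Tlr3 and Tlr4 did not pass the test in either genotype. The median log2 fold change of the 10 genes was 2.14 in Cre-positive and 1.96 in Cre-negative hearts, against 0.02 over all genes in each. Libraries of MI lay wholly above those of sham for 8 of 10 genes in Cre-positive hearts (29.3% of all genes) and for 9 of 10 in Cre-negative hearts (36.1% of all genes). In whole tissue, a change in the number of cells of a type and a change in RNA per cell cannot be told apart.

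**Figure D1:**
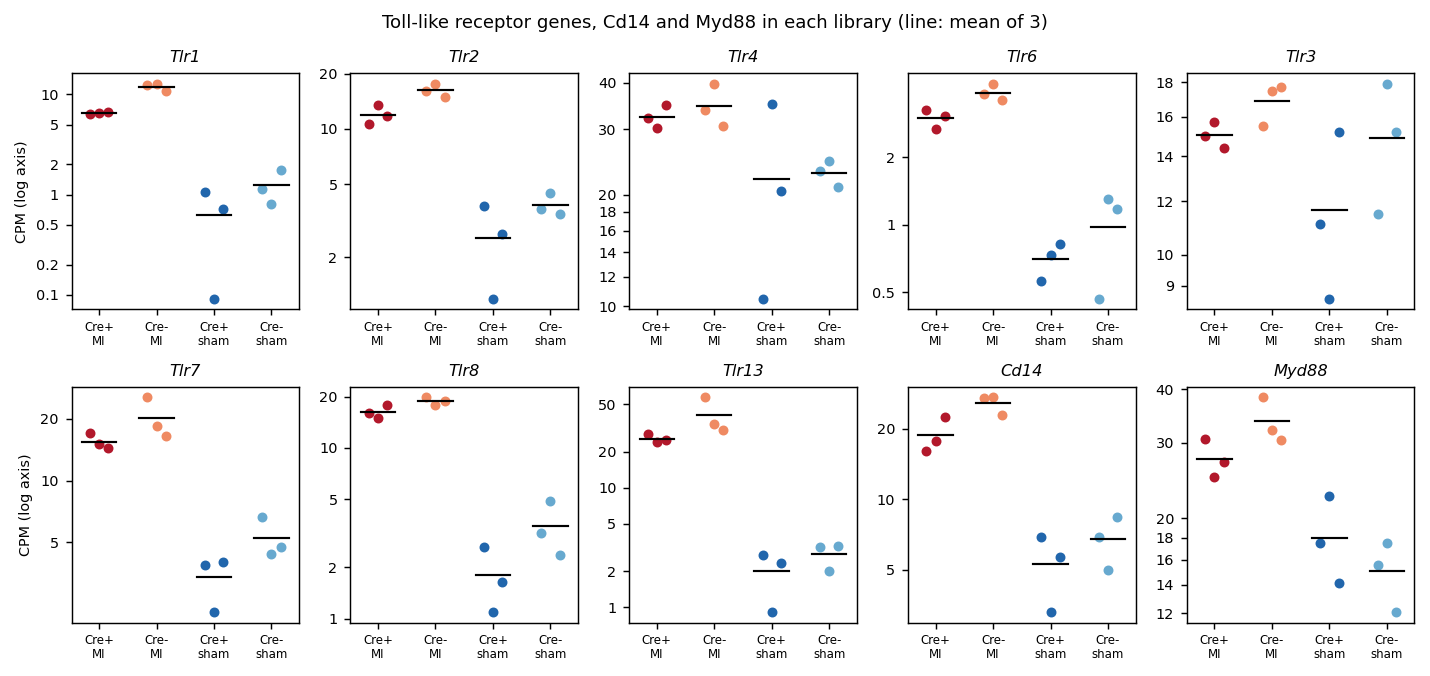
CPM (log axis) of each of the 10 genes in every library, with 3 points and a line at the mean for each of the groups Cre-positive MI, Cre-negative MI, Cre-positive sham and Cre-negative sham. The red and orange MI points of Tlr13 lie at 24.2 to 57.3 CPM, above all blue sham points at 0.916 to 3.25 CPM, while MI and sham points of Tlr3 interleave.

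Among the cell-surface receptors, Tlr1 rose most. Tlr1 (Entrez 21897, mm10 chr5:64924680-64933600, minus strand) had 6.30, 6.57 and 6.70 CPM in Cre-positive MI hearts and 12.3, 12.7 and 10.8 CPM in Cre-negative MI hearts. In sham hearts it had 1.05, 0.0916 and 0.722 CPM in Cre-positive and 1.13, 0.799 and 1.77 CPM in Cre-negative libraries. Each MI library lay above each sham library of its genotype, and the level of 0.0916 CPM in Cre-positive sham replicate 2 was a single read. The log2 fold change, MI over sham, was 3.35 ± 0.40 in Cre-positive hearts (SE, n = 3 per group, edgeR adjusted p = 3.41e-05) and 3.27 ± 0.35 in Cre-negative hearts (edgeR adjusted p = 1.09e-05).

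Tlr6 (Entrez 21899, mm10 chr5:64953092-64970942, minus strand), the other partner of TLR2 and the neighbour of Tlr1 on the chromosome, had the lowest mean level per length of the 10 genes in all groups. It had 3.25, 2.69 and 3.05 CPM in Cre-positive MI hearts and 3.83, 4.25 and 3.60 CPM in Cre-negative MI hearts, against 0.563, 0.733 and 0.825 CPM in Cre-positive sham hearts and 0.470, 1.30 and 1.18 CPM in Cre-negative sham hearts. MI and sham libraries did not overlap in either genotype, with log2 fold changes of 2.08 ± 0.31 in Cre-positive (edgeR adjusted p = 0.000211) and 1.98 ± 0.30 in Cre-negative hearts (edgeR adjusted p = 0.000131).

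Tlr1 and Tlr6 carry more than 1 stretch of identical sequence, and the longest is shown here. Reads from such stretches fit both genes, so the expected counts of this pair depend on how RSEM divided them. The longest stretch is 229 bases long and lies inside the coding sequence of both genes (mm10, GENCODE M21). It stands on the minus strand at chr5:64925537-64925765 in exon 4 of 4 of Tlr1 and at chr5:64953828-64954056 in exon 2 of 2 of Tlr6. It reads the same in both genes.
Tlr1 and Tlr6: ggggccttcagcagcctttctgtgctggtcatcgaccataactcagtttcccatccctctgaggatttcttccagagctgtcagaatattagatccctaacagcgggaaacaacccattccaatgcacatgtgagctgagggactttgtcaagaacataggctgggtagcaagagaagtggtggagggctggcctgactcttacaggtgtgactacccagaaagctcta
Of the 50-base windows of the longest Tlr1 transcript, 15.3% recurred in Tlr6, and of the 100-base windows 8.85%. The longest Tlr6 transcript has 3677 bases against 3025 for Tlr1. These shares are larger than the printed stretch alone can give, so further identical runs lie outside it and are not printed. Among the 28 pairs of the 8 receptors, Tlr1 with Tlr6 was the only 1 with a shared run of 50 bases. The longest run in the other pairs was 18 bases.

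Tlr2 (Entrez 24088, mm10 chr3:83836272-83841824, minus strand), the shared partner in lipoprotein recognition, had 10.6, 13.5 and 11.8 CPM in Cre-positive MI hearts and 16.2, 17.6 and 14.9 CPM in Cre-negative MI hearts. Its sham values were 3.78, 1.19 and 2.68 CPM in Cre-positive and 3.67, 4.49 and 3.45 CPM in Cre-negative hearts, all below the MI values. The log2 fold change, MI over sham, was 2.21 ± 0.28 in Cre-positive (edgeR adjusted p = 4.97e-05) and 2.07 ± 0.26 in Cre-negative hearts (edgeR adjusted p = 3.74e-05).

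Tlr4 (Entrez 21898, mm10 chr4:66827551-66846581, plus strand), the lipopolysaccharide receptor, did not pass the test in the fit of all libraries. After MI it had 32.2, 30.2 and 34.8 CPM in Cre-positive and 33.7, 39.7 and 30.6 CPM in Cre-negative hearts. After sham surgery it had 10.5, 35.1 and 20.5 CPM in Cre-positive and 23.2, 24.6 and 20.9 CPM in Cre-negative hearts. Cre-positive sham replicate 2 exceeded all 3 Cre-positive MI libraries, whereas the Cre-negative groups did not overlap. The log2 fold change was 0.56 in Cre-positive hearts (95% interval -0.09 to 1.21, edgeR adjusted p = 0.144) and 0.60 in Cre-negative hearts (95% interval -0.05 to 1.25, edgeR adjusted p = 0.107). Without Cre-positive sham replicate 2 it was 1.05 in Cre-positive hearts (edgeR adjusted p = 0.00114) and 0.57 in Cre-negative hearts (edgeR adjusted p = 0.0124), past the threshold in each. A fit of the Cre-negative groups alone also called it (0.60, edgeR adjusted p = 0.00186), as did the authors' deposited table for Cre-negative hearts (log2 fold change 0.57, adjusted p = 0.000481).

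Among the endosomal receptors, Tlr13 showed the largest rise of all 10 genes. Tlr13 (Entrez 279572, mm10 chrX:106143275-106160493, plus strand) had 28.0, 24.2 and 25.0 CPM in Cre-positive MI hearts and 57.3, 34.5 and 30.4 CPM in Cre-negative MI hearts. It had 2.73, 0.916 and 2.37 CPM in Cre-positive sham hearts and 3.20, 2 and 3.25 CPM in Cre-negative sham hearts. No library of MI came near those of sham, and Cre-negative MI replicate 1 was higher than the other libraries of MI. Tlr13 was 12.7-fold higher after MI in Cre-positive hearts (log2 3.66 ± 0.33, edgeR adjusted p = 4.36e-06) and 14.4-fold higher in Cre-negative hearts (log2 3.85 ± 0.32, edgeR adjusted p = 1.58e-06).

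Tlr8 (Entrez 170744, mm10 chrX:167241123-167264329, minus strand) and Tlr7 (Entrez 170743, mm10 chrX:167303380-167330574, minus strand) are neighbours on the X chromosome and read single-stranded RNA. Tlr8 had 16.1, 14.9 and 17.9 CPM in Cre-positive MI hearts and 19.8, 17.9 and 18.9 CPM in Cre-negative MI hearts, against 2.65, 1.10 and 1.65 CPM in Cre-positive sham hearts and 3.20, 4.89 and 2.37 CPM in Cre-negative sham hearts. Tlr7 had 17, 15.1 and 14.4 CPM in Cre-positive MI hearts and 25.5, 18.4 and 16.5 CPM in Cre-negative MI hearts, against 3.86, 2.29 and 4.02 CPM in Cre-positive sham hearts and 6.68, 4.39 and 4.73 CPM in Cre-negative sham hearts. Neither gene had overlapping MI and sham libraries. The log2 fold change of Tlr8 was 3.15 ± 0.27 in Cre-positive (edgeR adjusted p = 3.08e-06) and 2.43 ± 0.25 in Cre-negative hearts (edgeR adjusted p = 7.71e-06). That of Tlr7 was 2.19 ± 0.24 in Cre-positive (edgeR adjusted p = 1.76e-05) and 1.93 ± 0.23 in Cre-negative hearts (edgeR adjusted p = 2.01e-05). With Y-linked transcripts as a covariate, the log2 fold changes of Tlr13, Tlr8 and Tlr7 were 3.55, 3.26 and 2.09 in Cre-positive and 3.75, 2.56 and 1.85 in Cre-negative hearts.

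Tlr3 (Entrez 142980, mm10 chr8:45395665-45411075, minus strand), the receptor for double-stranded RNA, did not pass the test in either genotype and lay between 8.61 and 17.9 CPM in all libraries. It had 15.0, 15.7 and 14.4 CPM in Cre-positive MI hearts, 15.5, 17.5 and 17.7 CPM in Cre-negative MI hearts, 11.1, 8.61 and 15.2 CPM in Cre-positive sham hearts and 11.5, 17.9 and 15.2 CPM in Cre-negative sham hearts. MI and sham libraries overlapped in both genotypes. The log2 fold change was 0.37 in Cre-positive hearts (95% interval -0.05 to 0.80, edgeR adjusted p = 0.136) and 0.19 in Cre-negative hearts (95% interval -0.23 to 0.60, edgeR adjusted p = 0.428). Without Cre-positive sham replicate 3 the Cre-positive value was 0.57 and passed the test (edgeR adjusted p = 0.0304). In GENCODE M21 the antisense gene Gm45542 covers 2.61% of the exon bases of Tlr3, and no other exon lies over the exons of the 10 genes.

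The co-receptor Cd14 (Entrez 12475, mm10 chr18:36725064-36726815, minus strand), a surface protein of monocytes and macrophages that hands ligands to TLR4 and TLR2, had 16.1, 17.7 and 22.5 CPM in Cre-positive MI hearts and 27.2, 27.3 and 22.9 CPM in Cre-negative MI hearts. It had 6.92, 3.30 and 5.67 CPM in Cre-positive sham hearts and 6.87, 4.99 and 8.38 CPM in Cre-negative sham hearts. All MI libraries lay above all sham libraries. Its log2 fold change was 1.82 ± 0.24 in Cre-positive (edgeR adjusted p = 8.85e-05) and 1.93 ± 0.24 in Cre-negative hearts (edgeR adjusted p = 2.96e-05).

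The adaptor Myd88 (Entrez 17874, mm10 chr9:119335934-119340018, minus strand), which links the receptors to their kinases, rose least among the 8 genes called. It had 30.6, 24.9 and 27.0 CPM in Cre-positive MI hearts and 38.3, 32.2 and 30.4 CPM in Cre-negative MI hearts, against 17.5, 22.5 and 14.1 CPM in Cre-positive sham hearts and 15.6, 17.5 and 12.1 CPM in Cre-negative sham hearts. The groups did not overlap, although Cre-positive sham replicate 2 came close to the lowest Cre-positive MI library. The log2 fold change was 0.61 ± 0.18 in Cre-positive (edgeR adjusted p = 0.0144) and 1.16 ± 0.18 in Cre-negative hearts (edgeR adjusted p = 0.000172). The Cre-positive call was lost without Cre-positive MI replicate 1 (0.52, edgeR adjusted p = 0.0587) and without Cre-positive sham replicate 3 (0.44, edgeR adjusted p = 0.0598).

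**Figure D2:**
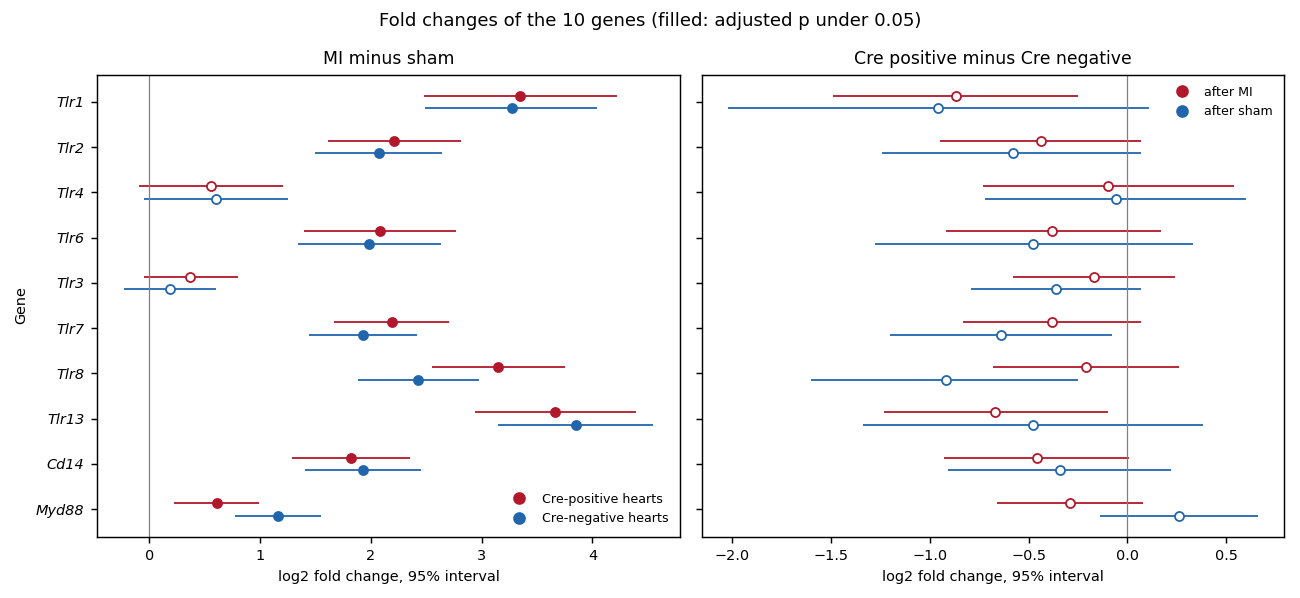
Log2 fold changes of the 10 genes with 95% intervals, MI minus sham on the left (Cre-positive hearts in red, Cre-negative hearts in blue) and Cre positive minus Cre negative on the right (after MI in red, after sham in blue). Filled points passed an adjusted p of 0.05: 8 of 10 genes in each genotype on the left, where Tlr13 reaches 3.66 and 3.85, and 0 of 10 on the right.

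The order of the genes by level also differed between MI and sham hearts. Per length, in the authors' FPKM (fragments scaled by transcript length and library size), Myd88 and Cd14 had the highest means and Tlr6 the lowest in all 4 groups. Libraries of Cd14 overlapped those of Tlr4 and of Tlr3 in both sham groups and those of Tlr13 in Cre-negative MI hearts. Those of Tlr6 overlapped those of Tlr1 in both sham groups. Tlr13 ranked 3 after MI, with 6.73 ± 0.627 FPKM in Cre-positive and 11.2 ± 4.25 FPKM in Cre-negative hearts (SD, n = 3 each). In sham hearts Tlr13 ranked 7 in Cre-positive, at 0.450 ± 0.221 FPKM, and 8 in Cre-negative, at 0.647 ± 0.145 FPKM. Tlr4 and Tlr3 took ranks 3 and 4 in Cre-positive sham hearts, at 2.48 ± 1.37 and 2.40 ± 0.693 FPKM, and ranks 4 and 3 in Cre-negative sham hearts, at 2.68 ± 0.294 and 3.24 ± 0.831 FPKM, with overlapping libraries in each. After MI, Tlr2, Tlr4, Tlr7, Tlr8 and Tlr3 lay at 3.67 to 4.39 FPKM on average in Cre-positive hearts, and each overlapped its neighbour in that order. Myd88 and Cd14 overlapped after MI, at 15.0 ± 1.8 and 11.9 ± 2.12 FPKM in Cre-positive and 19.2 ± 2.82 and 17.1 ± 2.02 FPKM in Cre-negative hearts, but not in sham hearts.

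Summed over the 10 genes, reads came to 175, 165 and 178 CPM in Cre-positive MI hearts, 250, 222 and 197 CPM in Cre-negative MI hearts, 60.7, 75.8 and 67.8 CPM in Cre-positive sham hearts and 75.5, 82.8 and 73.3 CPM in Cre-negative sham hearts. Tlr3, Tlr4 and Myd88 together made up 43.4 ± 0.896% of this sum in Cre-positive MI hearts and 38.4 ± 2.92% in Cre-negative MI hearts, against 75.1 ± 11.5% in Cre-positive sham hearts and 68.2 ± 3.61% in Cre-negative sham hearts (SD, n = 3 each). The sums of sham hearts thus consisted mainly of the 3 genes with the smallest folds, and those of MI hearts mainly of the other 7.

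Promoters of the genes with the highest folds, Tlr1, Tlr13 and Tlr8, are shown with that of Tlr3, which did not pass the test. Each runs 5′ to 3′ along the gene from 250 bases before to 50 bases after its start (RefSeq, GRCm38.p6, the assembly of mm10), and capitals mark matches on either strand to the motifs searched.
Tlr1 (chr5:64933509-64933808, minus strand): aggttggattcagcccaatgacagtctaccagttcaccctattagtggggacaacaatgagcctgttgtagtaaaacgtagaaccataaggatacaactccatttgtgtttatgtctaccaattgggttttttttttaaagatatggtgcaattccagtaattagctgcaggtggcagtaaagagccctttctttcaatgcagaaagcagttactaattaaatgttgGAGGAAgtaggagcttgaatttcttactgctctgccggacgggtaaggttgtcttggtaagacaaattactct
Tlr13 (chrX:106143025-106143324, plus strand): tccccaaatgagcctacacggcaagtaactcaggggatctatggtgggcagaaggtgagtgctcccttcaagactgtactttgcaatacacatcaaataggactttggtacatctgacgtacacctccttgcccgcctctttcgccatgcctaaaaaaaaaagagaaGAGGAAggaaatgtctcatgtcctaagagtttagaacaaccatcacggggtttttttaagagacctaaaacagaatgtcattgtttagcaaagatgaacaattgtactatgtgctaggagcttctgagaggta
Tlr8 (chrX:167264280-167264579, minus strand): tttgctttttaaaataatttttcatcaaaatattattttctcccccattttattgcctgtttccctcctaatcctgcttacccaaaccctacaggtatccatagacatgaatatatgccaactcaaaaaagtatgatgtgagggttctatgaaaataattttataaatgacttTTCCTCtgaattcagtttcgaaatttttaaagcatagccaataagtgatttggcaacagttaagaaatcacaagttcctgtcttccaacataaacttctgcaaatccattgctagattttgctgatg
Tlr3 (chr8:45410331-45410630, minus strand): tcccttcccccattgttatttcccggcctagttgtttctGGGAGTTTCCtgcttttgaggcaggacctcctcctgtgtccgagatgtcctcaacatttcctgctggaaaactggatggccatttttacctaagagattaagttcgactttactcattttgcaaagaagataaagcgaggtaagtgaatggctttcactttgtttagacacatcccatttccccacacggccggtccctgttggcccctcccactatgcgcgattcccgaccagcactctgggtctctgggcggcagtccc
The motifs were GAGGAA, the core bound by the myeloid factor PU.1, an interferon response core of GAAA, any 2 bases and GAAA, and an NF-kappaB form of GGGA, any base and TTTCC. The table held 9 windows of 7 of the 10 genes, some genes having more than 1 start. GAGGAA stood in 3 of 9 windows, those of Tlr1, Tlr13 and Tlr8 printed above but not that of the other Tlr1 start (chr5:64932650-64932949, minus strand), and in 28.3% of 32851 promoters of the same length. The interferon response core stood in 2 of 9, in Tlr6 as 2 overlapping matches and in Myd88, and in 3.44% of all promoters. The NF-kappaB form stood in 1 of 9, that of Tlr3, and in 0.411% of all promoters. No match to 1 motif overlapped a match to another in these windows, and a match is a description of the letters only.

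Markers of macrophages and monocytes rose with the receptors. Their summed level over 12 genes was 1527 to 1678 CPM in Cre-positive MI hearts and 1994 to 2239 CPM in Cre-negative MI hearts, against 140 to 414 CPM in Cre-positive sham hearts and 363 to 411 CPM in Cre-negative sham hearts. In each genotype 11 of 12 passed the test as higher, with Cd163, a scavenger receptor of resident macrophages, as the exception, and none of the 12 was at 0 in any group. Cre-positive sham replicate 2 was the lowest library of all at 140 CPM, as it was for Tlr1, Tlr2, Tlr3, Tlr7, Tlr8, Tlr13 and Cd14. Lyz2, which encodes lysozyme, supplied the largest part of the sum, at 712 to 841 CPM in Cre-positive MI hearts and 1014 to 1075 CPM in Cre-negative MI hearts. Fibroblast markers (6 genes) came to 7310 to 8359 CPM in Cre-positive MI hearts and 9506 to 10750 CPM in Cre-negative MI hearts. They came to 964 to 1040 CPM in Cre-positive sham hearts and 1245 to 1606 CPM in Cre-negative sham hearts. Col1a1 and Col1a2 supplied most of the sum after MI, at 3670 to 4551 and 2568 to 2927 CPM in Cre-positive MI hearts. The median log2 fold change of the 6 genes was 0.66 in Cre-positive and 0.59 in Cre-negative hearts. Neutrophil markers (8 genes) came to 25.1 to 57.5 CPM in Cre-positive MI hearts and 43.8 to 101 CPM in Cre-negative MI hearts, against 17.4 to 22.3 CPM in Cre-positive sham hearts and 8.56 to 23.0 CPM in Cre-negative sham hearts. Cardiomyocyte markers (8 genes) came to 60122 to 73549 CPM in Cre-positive MI hearts and 41805 to 58575 CPM in Cre-negative MI hearts, against 65637 to 123579 CPM in Cre-positive sham hearts and 100876 to 113624 CPM in Cre-negative sham hearts. Sums of dendritic cell markers (7 genes) were 17.9 to 19.6 CPM in Cre-positive MI hearts and 19.2 to 23.8 CPM in Cre-negative MI hearts. They were 9.8 to 11.9 CPM in Cre-positive sham hearts and 10.7 to 13.4 CPM in Cre-negative sham hearts. Flt3, Itgax and Batf3 were called higher in both genotypes, and 4 of the 7 were called in neither. Itgax had 5.16 to 8.03 CPM in Cre-positive MI against 0.183 to 0.965 CPM in Cre-positive sham hearts. Zbtb46 had 4.38 to 5.69 CPM against 6.09 to 7.24 CPM in the same groups. Sums of B cell markers (5 genes) were 4.38 to 9.89 CPM in Cre-positive MI hearts and 4.27 to 12.4 CPM in Cre-negative MI hearts, against 0.825 to 2.81 CPM in Cre-positive sham hearts and 2.2 to 2.37 CPM in Cre-negative sham hearts. Sums of T cell markers (5 genes) were 5.16 to 5.77 CPM in Cre-positive MI hearts and 4.67 to 6.2 CPM in Cre-negative MI hearts, against 1.65 to 3.86 CPM in Cre-positive sham hearts and 1.87 to 3.19 CPM in Cre-negative sham hearts. All 3 of these sums lay above sham in every MI library. What part these cell types had in the rise of the receptors was not tested.

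Set against the summed macrophage and monocyte markers, the 10 genes fell into different patterns. Tlr13 had 17.5, 15.8 and 14.9 CPM per 1000 marker CPM in Cre-positive MI hearts and 25.6, 15.6 and 15.3 in Cre-negative MI hearts, against 6.60, 6.56 and 7.49 in Cre-positive sham hearts and 8.81, 4.86 and 7.94 in Cre-negative sham hearts. Its MI libraries thus stayed above its sham libraries on this scale, as did those of Tlr1 in both genotypes and of Tlr8 in Cre-positive hearts. These were 3 of 10 genes in Cre-positive and 2 of 10 in Cre-negative hearts, where 2.59% and 3.45% of all genes lay above. The ratio of means, MI over sham, was 2.33 for Tlr13 and 2.24 for Tlr1 in Cre-positive hearts, and 2.61 and 1.78 in Cre-negative hearts. The markers in the sum rose unevenly, with a median log2 fold change of 2.85 in Cre-positive and 2.71 in Cre-negative hearts. Lyz2, the largest part of the sum, rose by 2.96 in Cre-positive and 2.80 in Cre-negative hearts. Cd68 rose by 3.70 and 4.06, above Tlr13 and Tlr1 in each genotype, and Ccr2 by 4.93 and 3.58. Staying above sham on this scale is therefore relative to the sum and not to each marker. Tlr2, Tlr7, Cd14 and Tlr6 had ratios of 0.863, 0.757, 0.603 and 0.609 in Cre-positive and 0.770, 0.689, 0.699 and 0.741 in Cre-negative hearts. Tlr4, Tlr3 and Myd88 had the lowest ratios, 0.178, 0.207 and 0.208 in Cre-positive and 0.277, 0.212 and 0.408 in Cre-negative hearts, and their MI libraries lay below sham. With Cd14 in Cre-positive and Tlr2 in Cre-negative hearts they made 4 of 10 genes below in each genotype, as were 88.8% of all genes in Cre-positive and 89.8% in Cre-negative hearts. Without Cre-positive sham replicate 2, whose marker sum was the lowest, the Cre-positive ratios were 0.449 for Tlr4, 0.396 for Myd88, 0.944 for Tlr6, 1.7 for Tlr1 and 2.28 for Tlr13, a setting added after seeing the data.

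**Figure D3:**
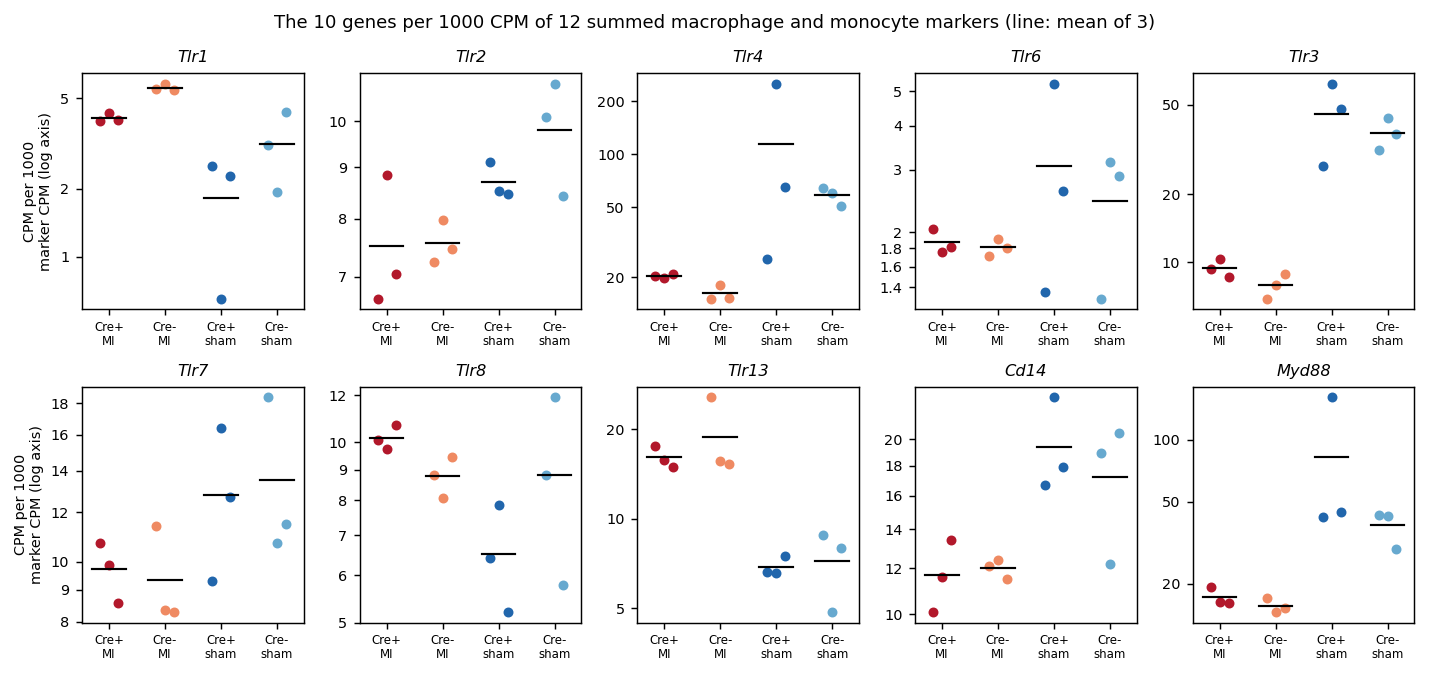
CPM of each of the 10 genes per 1000 CPM of 12 summed macrophage and monocyte markers (log axis), with 3 points and a line at the mean per group. Tlr13 lies at 14.9 to 25.6 in MI and at 4.86 to 8.81 in sham libraries, while Tlr4, Tlr3 and Myd88 are lower in MI than in sham libraries of their genotype, and Cre-positive sham replicate 2 gives the high points of Tlr4 (251) and Myd88 (161).

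Other genes of the pathway moved unevenly after MI. Of the 4 remaining mouse receptors, 2 had enough reads to be tested. Tlr9, the endosomal receptor for unmethylated DNA, had log2 fold changes of 2.12 ± 0.37 in Cre-positive (edgeR adjusted p = 0.000595) and 2.09 ± 0.36 in Cre-negative hearts (edgeR adjusted p = 0.000367). Tlr5, which binds flagellin, changed by 0.86 ± 0.27 in Cre-positive hearts (edgeR adjusted p = 0.0223) and stood at 0.63 ± 0.27 in Cre-negative hearts without passing the test (edgeR adjusted p = 0.068). Tlr11 and Tlr12 had at most 0.265 CPM in any library and were not tested.

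Among 11 co-receptors, chaperones and further adaptors, 6 rose and 1 fell in Cre-positive hearts, and 7 rose and 1 fell in Cre-negative hearts, with medians of 0.87 and 0.75 on the log2 scale. Over all genes, 25.7% were called higher and 19.5% lower in Cre-positive hearts, and 29.9% higher and 24.4% lower in Cre-negative hearts, and the list counts that follow are read against these shares. Cd180, a receptor relative that works with Ly86, rose by 4.15 ± 0.40 in Cre-positive and 3.92 ± 0.36 in Cre-negative hearts, and Ly86 by 3.22 ± 0.33 and 2.44 ± 0.30. Unc93b1, which carries the nucleic acid receptors to endosomes, rose by 2.17 ± 0.30 in Cre-positive and 2.01 ± 0.29 in Cre-negative hearts. Ticam2, an adaptor of TLR4, rose by 2.13 ± 0.34 in Cre-positive and 1.65 ± 0.32 in Cre-negative hearts. The scavenger receptor Cd36 was the gene that fell, by 0.74 in Cre-positive and by 0.89 in Cre-negative hearts (edgeR adjusted p = 0.0431 and 0.0162). Ticam1, the adaptor of TLR3, stood at 0.00 ± 0.15 in Cre-positive and 0.22 ± 0.15 in Cre-negative hearts and did not pass the test.

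Kinases and ubiquitin ligases below MyD88 (16 genes) had medians near 0, at 0.02 in Cre-positive and 0.17 in Cre-negative hearts. In Cre-positive hearts 4 rose and 2 fell, and in Cre-negative hearts 5 rose and 4 fell, shares of higher calls near the 25.7% and 29.9% over all genes. The kinase Ikbke rose by 2.88 ± 0.25 in Cre-positive and 2.68 ± 0.23 in Cre-negative hearts, and Irak4, the kinase that MyD88 recruits, by 1.14 ± 0.22 and 1.29 ± 0.22. Irak1 fell by 0.32 in Cre-positive and by 0.35 in Cre-negative hearts, and Ikbkg, the regulatory subunit of the IkappaB kinase, fell by 0.47 and by 0.37. The kinase genes Ikbkb and Map3k8 rose by 0.29 and 0.58 in Cre-positive and by 0.50 and 0.59 in Cre-negative hearts, and Tab1 and Tab3 encode partners of the kinase TAK1. Tab1 stood at -0.38 in Cre-positive (edgeR adjusted p = 0.0547) and fell by 0.48 in Cre-negative hearts, and Tab3 stood at -0.16 in Cre-positive (edgeR adjusted p = 0.397) and fell by 0.46 in Cre-negative hearts. Neither difference between genotypes passed the test (edgeR adjusted p = 0.923 for Tab1 and 0.721 for Tab3).

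Transcription factors (11 genes) had 3 members higher and 0 lower in Cre-positive hearts (median 0.19) and 7 higher and 0 lower in Cre-negative hearts (median 0.43), where 25.7% and 29.9% of all genes were called higher. Irf5, Irf8 and Irf7, interferon regulatory factors, rose in both genotypes. Irf5 rose by 2.60 ± 0.22 in Cre-positive and 2.58 ± 0.22 in Cre-negative hearts, Irf8 by 1.66 ± 0.14 and 2.2 ± 0.14, and Irf7 by 2.03 ± 0.34 and 1.51 ± 0.34. The NF-kappaB subunit gene Relb changed by 1.06 ± 0.17 in Cre-negative hearts (edgeR adjusted p = 0.000277) and stood at 0.43 ± 0.17 in Cre-positive hearts (edgeR adjusted p = 0.0614). Its difference between genotypes did not pass the test (edgeR adjusted p = 0.597), nor did that of any of the 11, of which 2 had an unadjusted p under 0.05.

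Inhibitors of the pathway (13 of 14 tested) had 2 members higher and 1 lower in Cre-positive hearts (median 0.04) and 5 higher and 1 lower in Cre-negative hearts (median 0.12), against 25.7% and 29.9% of all genes called higher. Nfkbiz, an inducible nuclear IkappaB protein, rose by 1.54 ± 0.19 in Cre-positive and 2.08 ± 0.19 in Cre-negative hearts, and the cytokine signalling inhibitor Socs1 by 2.07 ± 0.41 and 2.01 ± 0.40. Tnfaip3, which encodes the ubiquitin-editing enzyme A20, stood at 0.40 in Cre-positive (edgeR adjusted p = 0.159) and rose by 0.97 in Cre-negative hearts. Irak3, an inhibitory IRAK, stood at 0.36 in Cre-positive (edgeR adjusted p = 0.107) and rose by 0.67 in Cre-negative hearts. The differences between genotypes did not pass the test (edgeR adjusted p = 0.649 for Tnfaip3 and 0.744 for Irak3). Tollip fell by 0.40 in Cre-positive and by 0.41 in Cre-negative hearts.

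Cytokine and enzyme genes induced through the pathway (12 of 16 tested) rose in 10 cases in Cre-positive and 11 in Cre-negative hearts, and 0 fell, where 25.7% and 29.9% of all genes were called higher. The median log2 fold changes were 3.14 in Cre-positive and 3.10 in Cre-negative hearts with Il6 taken at its bound. The chemokine gene Cxcl10 rose by 4.75 ± 0.56 in Cre-positive and 4.39 ± 0.56 in Cre-negative hearts, Ccl2 by 3.80 ± 0.51 and 4.55 ± 0.50, and Ptgs2, which encodes cyclooxygenase 2, by 3.11 ± 0.40 and 2.28 ± 0.36. The chemokine gene Ccl3 had 127 reads in Cre-positive MI libraries against 1 in Cre-positive sham libraries, a ratio of 95.4 (exact 95% counting interval 16.8 to 3798). That interval pools the reads of each group and leaves out the spread between hearts. In Cre-negative hearts Ccl3 rose by 4.21 ± 0.57. Il6 had 36 reads over the Cre-positive MI libraries and 0 over the Cre-positive sham libraries, at least 9.02-fold higher against 3 reads over the group, and in Cre-negative hearts 70 reads against 0, at least 14.9-fold higher. Tnf, the gene of tumour necrosis factor, had 0.745, 0.636 and 1.06 CPM in Cre-positive MI hearts and 1.97, 1.31 and 1.87 CPM in Cre-negative MI hearts, against 0.309 to 0.367 CPM in Cre-positive sham hearts and 0.197 to 0.499 CPM in Cre-negative sham hearts.

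Genes of endogenous ligands proposed for these receptors (11 of 12 tested) had 5 members higher and 1 lower in Cre-positive hearts (median 1.29) and 7 higher and 1 lower in Cre-negative hearts (median 2.58), where 25.7% and 29.9% of all genes were called higher. Among the matrix genes, Tnc (tenascin C) rose by 8.01 ± 0.31 in Cre-positive and 5.24 ± 0.25 in Cre-negative hearts, Fn1 (fibronectin) by 4.35 ± 0.25 and 3.81 ± 0.24, and Vcan (versican) by 2.69 ± 0.23 and 2.58 ± 0.22, and Bgn (biglycan) by 2.50 ± 0.24 and 2.42 ± 0.24. Dcn (decorin) stood at 0.34 ± 0.14 in Cre-positive and 0.11 ± 0.14 in Cre-negative hearts and did not pass the test. Saa3, a serum amyloid gene, had 1567 reads in Cre-positive MI libraries against 1 in Cre-positive sham libraries, a ratio of 1177 (exact 95% counting interval 211 to 46530). That interval, too, pools reads and leaves out the spread between hearts. In Cre-negative hearts Saa3 rose by 5.57 ± 0.48. Hspd1, a mitochondrial chaperone, fell by 0.51 in Cre-positive and by 0.74 in Cre-negative hearts. Hmgb1, a chromatin protein released by dying cells, stood at 0.10 ± 0.20 in Cre-positive and 0.18 ± 0.20 in Cre-negative hearts and did not pass the test. The alarmin genes S100a8 and S100a9 passed the test in Cre-negative hearts (2.69 ± 0.93 and 2.92 ± 0.88) and stood at 1.22 ± 0.89 and 1.29 ± 0.82 in Cre-positive hearts. They also stand in the neutrophil list, and the difference between genotypes did not pass the test.

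**Figure D4:**
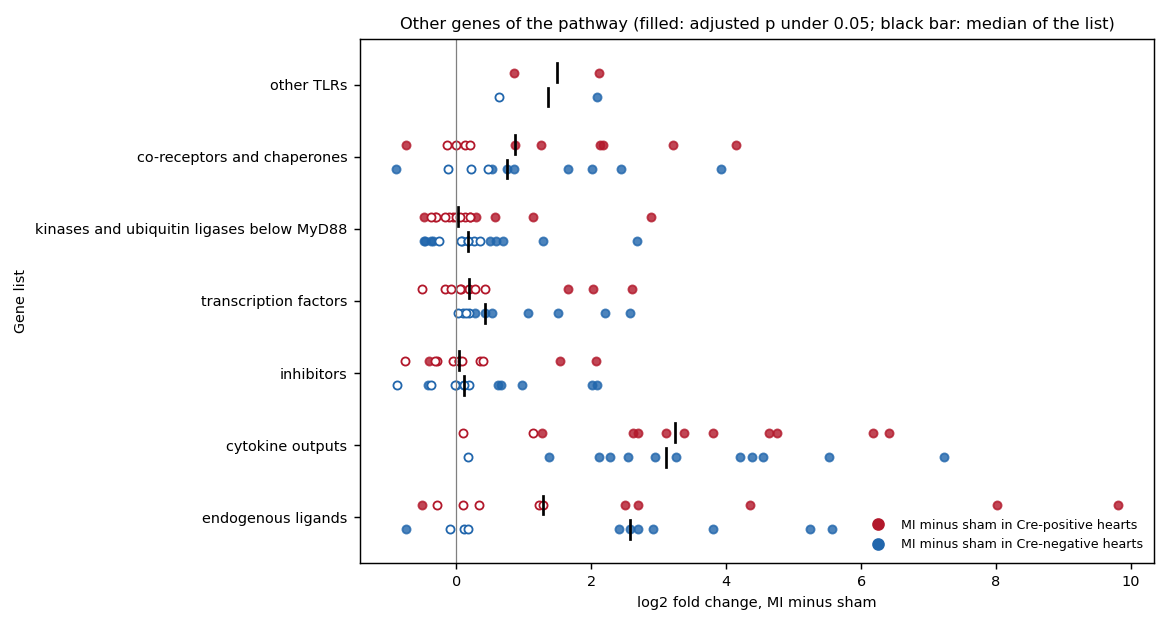
Log2 fold changes, MI minus sham, of the other genes of the pathway by list, each point a gene, Cre-positive hearts in red above Cre-negative hearts in blue, filled where the adjusted p was under 0.05, with a black bar at the list median of fitted values. Cytokine outputs lie mostly above 2, whereas kinases scatter about 0 with medians of 0.02 and 0.17, and the point of Tnc lies at 8.01 and 5.24.

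The comparison of genotypes asks whether the inducible Cre in activated fibroblasts went with other receptor levels in the same injured ventricle. The Cre sits in the Postn locus, which was unmodified in Cre-negative siblings. The Cre itself, its action on floxed Yap and the altered Postn locus therefore cannot be told apart in this comparison. After MI all 10 genes were lower on average in Cre-positive than in Cre-negative hearts, by a median log2 fold change of -0.38 against -0.01 over all genes, but none passed the test. The edgeR quasi-likelihood test called 0 of 10, and 0% of all genes tested. At an unadjusted p under 0.05 it gave 2 of the 10, Tlr1 and Tlr13, against 12.6% of all genes. DESeq2 called 1 of 10, Tlr1, and 167 of all genes. A log2 fold change below 0 was found for 10 of 10 genes and for 51.3% of all genes. Cre-positive libraries lay wholly below Cre-negative libraries for 5 of 10 genes, Tlr1, Tlr2, Tlr6, Tlr13 and Cd14, as they did for 15.2% of all genes.

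Tlr1 differed most, with 6.30, 6.57 and 6.70 CPM in Cre-positive MI hearts against 12.3, 12.7 and 10.8 CPM in Cre-negative MI hearts. The groups did not overlap, and the log2 fold change was -0.87 (95% interval -1.49 to -0.25, edgeR unadjusted p = 0.00994, adjusted p = 0.283). DESeq2 on the same counts gave -0.87 with an adjusted p of 0.0205, and the authors' deposited table gave -0.86 with an adjusted p of 0.000883. Tlr13 followed at -0.67 (95% interval -1.23 to -0.10, edgeR adjusted p = 0.326, DESeq2 adjusted p = 0.242), and at -0.65 with an adjusted p of 0.0407 in the authors' deposited table. That table held 763 of 17182 genes with an adjusted p under 0.05. Cd14, Tlr2, Tlr7, Tlr6, Myd88 and Tlr8 lay at -0.46, -0.44, -0.38, -0.38, -0.29 and -0.21, with 95% intervals that include 0. The intervals of Tlr4 (-0.73 to 0.54) and Tlr3 (-0.58 to 0.24) lay on both sides of 0 as well.

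The macrophage and monocyte markers moved with this difference: 1527 to 1678 CPM in Cre-positive MI hearts against 1994 to 2239 CPM in Cre-negative MI hearts, with 11 of 12 genes below 0 and 0 called. The fibroblast sum, mostly Col1a1 and Col1a2, was lower too, at 7310 to 8359 CPM in Cre-positive MI against 9506 to 10750 CPM in Cre-negative MI hearts. Of its 6 genes 5 lay below 0 and 0 were called, and Dcn stood at 0.16 ± 0.14. Neutrophil marker sums overlapped, at 25.1 to 57.5 CPM in Cre-positive MI and 43.8 to 101 CPM in Cre-negative MI hearts. Of the 6 neutrophil genes tested, 6 lay below 0 and 0 were called. Their median log2 fold change was -0.80, against -0.35 for the macrophage and monocyte markers. Cardiomyocyte markers were higher, at 60122 to 73549 CPM in Cre-positive MI against 41805 to 58575 CPM in Cre-negative MI hearts, with 0 of 8 genes called. Per 1000 CPM of macrophage and monocyte markers, Tlr1 had 3.95, 4.30 and 3.99 CPM in Cre-positive MI hearts and 5.49, 5.77 and 5.42 CPM in Cre-negative MI hearts, a ratio of means of 0.734. On this scale it was the only 1 of the 10 genes whose Cre-positive libraries lay wholly below, as did 0.665% of all genes, while those of Tlr4 and Tlr8 lay above, as did 64.2% of all genes. Tlr2 and Tlr13 had ratios of 0.993 and 0.854 and overlapped. The reads that Tlr1 shares with Tlr6 limit this, since they were divided by estimation. Y-linked transcripts were present in 1 of 3 Cre-positive MI and 3 of 3 Cre-negative MI libraries, and with their presence as a covariate the log2 fold changes of the X-linked genes were -0.44 for Tlr13 in place of -0.67, -0.20 for Tlr7 in place of -0.38 and -0.42 for Tlr8 in place of -0.21, and that of Tlr1 was -0.75 (edgeR adjusted p = 0.567). What part these cells or the sex of the animals had in the difference was not tested.

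After sham surgery the 2 genotypes were again not separated by the test. Of the 10 genes 0 were called by edgeR, where 0.0512% of all genes were called. An unadjusted p under 0.05 was found for 2 of 10 (Tlr7 and Tlr8), against 8.22% of all genes. DESeq2 called 0 of the 10 and 37 of all genes. Levels were lower in Cre-positive hearts for 9 of 10 genes, against 50.3% of all genes, with a median of -0.48. Cre-positive sham libraries lay wholly below Cre-negative sham libraries for 1 gene, Tlr7 (5.15% of all genes), which had 3.86, 2.29 and 4.02 CPM in Cre-positive and 6.68, 4.39 and 4.73 CPM in Cre-negative hearts and a log2 fold change of -0.64 (95% interval -1.20 to -0.08, edgeR adjusted p = 0.587). The value of Tlr8 was -0.92 (95% interval -1.60 to -0.25, edgeR adjusted p = 0.582). Tlr7 and Tlr8 are X-linked, and Y-linked transcripts were present in 0 of 3 Cre-positive sham and 2 of 3 Cre-negative sham libraries. With their presence as a covariate, Tlr7 stood at -0.44, Tlr8 at -1.12 and the X-linked Tlr13 at -0.24 in place of -0.48, none called. What part the sex of the animals had here was not tested. The values of Tlr2, Tlr6, Tlr3, Cd14 and Myd88 were -0.58, -0.48, -0.36, -0.34 and 0.26, with 95% intervals that include 0. Cre-positive sham replicate 2 weighed on several values, and without it the median was -0.30 and none of the 10 was called. Without that library Tlr7 stood at -0.40, Tlr8 at -0.63, Tlr1 at -0.43 in place of -0.96, Tlr13 at -0.11 in place of -0.48, Tlr2 at -0.21, Cd14 at -0.07, Tlr3 at -0.16, Myd88 at 0.11, and Tlr4 at -0.56 in place of -0.06. Among the pathway genes, Tnc was the only 1 called in this comparison, with a mean of 1.04 CPM in Cre-positive against 9.92 CPM in Cre-negative sham hearts (log2 -3.22 ± 0.32, edgeR adjusted p = 0.00228). Per 1000 CPM of macrophage and monocyte markers, the sham libraries of the genotypes overlapped for 10 of 10 genes, while 14.9% of all genes lay above and 0.548% below in Cre-positive hearts.

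The injury response of the 10 genes was also compared between genotypes, as the difference of the 2 log2 fold changes. The edgeR test called 0 of 10 and 0% of all genes, and 1 of 10 had an unadjusted p under 0.05, against 8.16% of all genes. DESeq2 called 0 of 10 and 33 of all genes, giving no adjusted p for 5 of the 10. The differences were below 0 for 4 of 10 genes, against 49.4% of all genes, with a median of 0.09. Without Cre-positive sham replicate 2 they were below 0 for 5 of 10, with a median of -0.10, and Tlr13 stood at -0.54, Tlr1 at -0.43, Tlr8 at 0.44, Tlr4 at 0.47, Myd88 at -0.38 and Cd14 at -0.38, none called. The gene with an unadjusted p under 0.05 was Myd88, whose response was smaller in Cre-positive hearts by -0.55 ± 0.25 (edgeR adjusted p = 0.61). Tlr8 had the largest difference in the other direction, 0.72 ± 0.38 (95% interval -0.11 to 1.54, edgeR adjusted p = 0.635). Tlr7, Tlr3, Tlr2, Tlr6 and Tlr1 lay at 0.26, 0.19, 0.15, 0.10 and 0.08, and Cd14 and Tlr4 at -0.11 and -0.04. For Tlr13, with the largest folds, the difference was -0.18 with a 95% interval of -1.23 to 0.86, so responses that differ up to these bounds were not separated at this sample size.

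The genes outside the set whose levels ran most like those of each member were found by the root mean square difference of log2 CPM, centred on each gene's mean, over the 12 libraries. Tlr13 was nearest to Ms4a6d (0.25), Lat2 (0.26) and Havcr2 (0.27), and Tlr1 to C3ar1 (0.25), Wfdc17 (0.26) and Col5a1 (0.28), against medians over all other genes of 1.94 for Tlr13 and 1.81 for Tlr1. Tlr2 was nearest to Unc93b1 (0.15), Was (0.16) and Oaf (0.16), and Tlr7 to Lrmp (0.16), Cks1b (0.17) and Galnt16 (0.19). Tlr8 ran closest to Fam105a (0.20), Meox1 (0.20) and Skp2 (0.23), and Cd14 to Rap2b (0.17), Bend6 (0.19) and Sirpa (0.20). The low counts of Tlr6 ran closest to those of Pyroxd2 (0.20), Flrt2 (0.20) and Cenpl (0.21). For the genes with the smallest folds, Myd88 had Plekhg2 (0.10), Piezo1 (0.11) and Bin3 (0.11), Tlr3 had Zbtb8a, Gnpda2 and Nrp1 (0.13 each), and Tlr4 had Ccp110 (0.16) and Cd2ap (0.19), with medians over all other genes of 0.60, 0.45 and 0.60. Within the set, Tlr13 and Tlr1 were each other's nearest (0.41), as were Tlr7 and Cd14 (0.28).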

How the data were processed

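RNA of 12 left ventricles was sequenced, 3 per group, with groups taken from the sample titles. Per the submitters' processing notes, Bowtie2 2.2.5, RSEM 1.2.12 and mm10 were used, and other settings are not given in the sources used here. Per the file headers, the authors deposited RSEM expected counts and FPKM values per gene and library. The authors also deposited comparison tables of log2 fold changes and p-values, quoted here by name, made with DESeq2 per the names of the tables. Expected counts were rounded (74.0% of values above 0 were whole to 2 decimals), and no 2 libraries were identical.

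Counts were tested in R 4.3.3 with edgeR 4.0.16: filterByExpr (minimum count 10) kept 13678 genes and removed 3793, libraries were scaled by TMM (factors 0.89 to 1.14), and edgeR's quasi-likelihood fit took the 4 groups as factor levels over all 12 libraries, leaving 8 residual degrees of freedom (prior 4.16). Two-sided p-values had the Benjamini-Hochberg correction over all tested genes of a contrast, and genes under 0.05 are called. CPM was computed on the scaled library sizes. Intervals and the bound against 3 reads cover counting error or model error only, since reads are not independent molecules. A 3 against 3 permutation test cannot give a p below 0.1 and was not used. Alternatives were median-of-ratios scaling (RLE), no filter, DESeq2 1.42.0, the replicate number as a block, presence of Y-linked transcripts (10 CPM over 4 genes) as a covariate, only the groups compared, and each library left out. The ratios to macrophage markers without Cre-positive sham replicate 2 were added after seeing the data. The fitting script was tested on simulated data.

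The 10 genes, the pathway and marker lists and the tests were chosen with earlier results of these data known. All 10 genes are named in every contrast, and from each list up to 4 called genes with the smallest p per direction, besides Il6, Tnf, Ticam1, Hmgb1, Dcn, Bgn, S100a8 and S100a9, chosen after their values were seen. Positions were matched by Entrez identifier to RefSeq, and shared sequence and exon overlaps come from GENCODE M21. Of the 3 genes nearest in level to each of the 10, 1 is not reported here.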

Additional observations from a re-analysis of the deposited data

How the results depend on the processing

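Injury calls numbered 8 of the 10 genes in each genotype with RLE scaling, without the filter, with DESeq2, with the replicate block and with Y-linked transcripts as a covariate, and 9 in Cre-negative hearts with only the groups compared. Leaving out 1 library gave 7 to 9 genes of the 10 in Cre-positive and 8 to 9 in Cre-negative hearts, while 5060 to 6603 and 6345 to 8360 of all genes were called. For genotype after MI, 0 of all genes were called, against 167 by DESeq2, 1 with only the groups compared and 0 to 3 leaving out a library (3 without Cre-positive sham replicate 2). DESeq2 called 1 of the 10, Tlr1, and the other alternatives 0. After sham the 7 genes called became 37 by DESeq2, 0 with only the groups compared and 3 to 8 leaving out a library (3 without Cre-negative sham replicate 1). For the difference of responses, 0 became 33 by DESeq2, 2 without the filter and 0 to 1 leaving out a library. The cause of these differences was not tested.

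Of 889 values of single genes under alternatives, 881 kept their direction or stayed uncalled, 2 lost and 6 gained a call, and 18 changed sign without a call, 16 of them in the difference of responses and 0 in the injury comparisons. The 8 that lost or gained a call belong to Myd88, Tlr3, Tlr4 and Tlr1 and are given above, besides Tlr4 in Cre-negative hearts without Cre-positive sham replicate 1 (0.57, edgeR adjusted p = 0.0131). DESeq2 gave no adjusted p for 6 of its values.

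Over 18 pairs of libraries with the same replicate number, the correlation of their deviations from the group mean was -0.15 to 0.29, above 0.1 in 4. It was 0.288 between the MI libraries numbered 1 and 0.254 between those numbered 3. Libraries with different numbers were not compared in this way, so these values cannot decide whether the number pairs libraries. With the replicate block, 6150, 7370, 0, 7 and 0 genes were called in the 5 comparisons, and 8, 8, 0, 0 and 0 of the 10. The shallow counts of Tlr1 and Tlr6 in sham hearts, 1 to 18 reads per library, limit their folds.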
